A study of Homo sapiens with 12 samples.

Results

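The genes described here encode subunits of the mitochondrial respiratory chain and the ATP synthase, from both genomes of the cell. Members were found by a rule on symbols alone, as the GENCODE protein-coding genes named NDUFA, NDUFB, NDUFC, NDUFS or NDUFV with a number, SDHA to SDHD, UQCR, COX4 to COX8, ATP5 or MT-, and matched to the count tables by Ensembl identifier. The rule uses no measured value. The rule found 100 of the 63677 identifiers listed, 87 in the nuclear genome and 13 in mitochondrial DNA. All 13 mitochondrial genes and 80 of the nuclear genes passed edgeR's filter on low counts, so 93 of 17123 tested genes are members. The rule also takes in UQCRHL, a copy of UQCRH, and ATP5IF1, an inhibitor of the ATP synthase that is not a structural subunit. NDUFA4 and NDUFA4L2 were placed with complex IV, of which NDUFA4 is a subunit.

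RNA was sequenced from MiaPaca2 cells, an established human pancreatic cancer cell line, in 4 groups of 3 libraries. Unprimed cells were given DMSO (Con) or 1 µM of calcipotriol (CPT), an analogue of Vitamin D. Primed cells received GTA at 2 mM with 5-Aza at 1 µM, alone (GTA+5-Aza) or with CPT at 1 µM (CPT+GTA+5-Aza), and treatment lasted 24 h throughout. GTA, glyceryl triacetate, is an acetate precursor for histone acetylation, and 5-Aza, 5-Aza-2′-deoxycytidine, inhibits DNA methylation. GTA and 5-Aza were given together only, so their separate effects cannot be told apart. The study's methods speak of independent samples in each experiment, but neither they nor the labels say whether these libraries came from separate cultures, so p-values measure the spread between these libraries, which may be technical.

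Complexes I to IV of the inner mitochondrial membrane pass electrons from NADH and succinate to oxygen and, except for complex II, pump protons. Complex V, the ATP synthase, uses the proton gradient to make ATP. Most subunits are encoded by separate genes in the nucleus, some by several, and imported as proteins. The mitochondrial DNA encodes core subunits of complexes I, III, IV and V, which are transcribed as long precursors from both strands and cut at the tRNAs between them, while complex II is entirely nuclear. Assembly therefore needs products of both genomes.

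The libraries held 16162490 to 21224665 counts. Of the 12 pairs of replicates, CPT replicates 2 and 3 were the furthest apart, with a chi-square of 18.06 per degree of freedom over genes against 3.988 to 9.661 in the other pairs. The carcinoma cell markers KRT8 and KRT18 reached at least 1410 and 643 CPM (the unit of levels here, counts divided by library size and scaled by edgeR's TMM method) in every library, and KRT19 28.3 CPM. VIM ran from 5300 to 6590 CPM, whereas the epithelial genes EPCAM and CDH1 were at 0 in 10 and 6 libraries and at most 0.0528 and 0.245 CPM elsewhere. The leukocyte genes PTPRC and CD68 reached 0.213 and 0.291 CPM. Markers of acinar (PRSS1, CPA1, CELA3A), islet (INS, GCG) and endothelial cells (PECAM1, CDH5) were at 0 in all 12 libraries. Of the fibroblast genes, COL1A2 ran from 688 to 942 CPM, COL1A1 reached 2.2 CPM and DCN was at 0 in 9 libraries.

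The first question was whether priming or CPT moved the output of the 2 genomes as a whole, and neither summed share separated the groups. The 13 mitochondrial genes took, of all counts, 4.03, 3.52 and 3.9% in Con, 3.62, 3.33 and 4.15% in CPT, 3.68, 4.05 and 3.85% in GTA+5-Aza and 3.78, 3.9 and 3.86% in CPT+GTA+5-Aza. The 87 nuclear genes together took 0.694, 0.745 and 0.709% in Con, 0.728, 0.766 and 0.671% in CPT, 0.71, 0.713 and 0.719% in GTA+5-Aza and 0.718, 0.731 and 0.717% in CPT+GTA+5-Aza. The mitochondrial share ran from 3.33 to 4.15% in the 6 unprimed libraries and from 3.68 to 4.05% in the 6 primed ones, so the primed libraries lay inside the unprimed range. The nuclear share behaved in the same way, with 0.671 to 0.766% in unprimed and 0.710 to 0.731% in primed libraries. The 95% Wilson intervals of these shares were at most 0.0188 and 0.00822 percentage points wide, and they cover counting error only.

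The 13 mitochondrial genes yielded 4.34 to 6.18 times as many counts as the 87 nuclear genes in unprimed libraries and 5.18 to 5.67 times as many in primed ones. By group the ratio was 5.34 ± 0.56 in Con, 5.17 ± 0.93 in CPT, 5.4 ± 0.25 in GTA+5-Aza and 5.33 ± 0.057 in CPT+GTA+5-Aza (SD, n = 3). The lowest and the highest ratio both came from CPT cells, in replicates 2 and 3, and Con replicate 2, at 4.73, was second lowest. In these libraries the shares of both genomes moved apart: CPT replicate 2 had the lowest mitochondrial and the highest nuclear share of all 12, and CPT replicate 3 the highest mitochondrial and the lowest nuclear share. The log2 ratio was 0.0403 higher in primed than in unprimed libraries on average. It was -0.0127 to 0.0891 when any one library was left out, and the same difference taken from library medians was -0.0881, so its sign was not fixed. In bulk RNA, fewer copies per cell and fewer cells of a kind cannot be told apart.

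**Figure D1:**
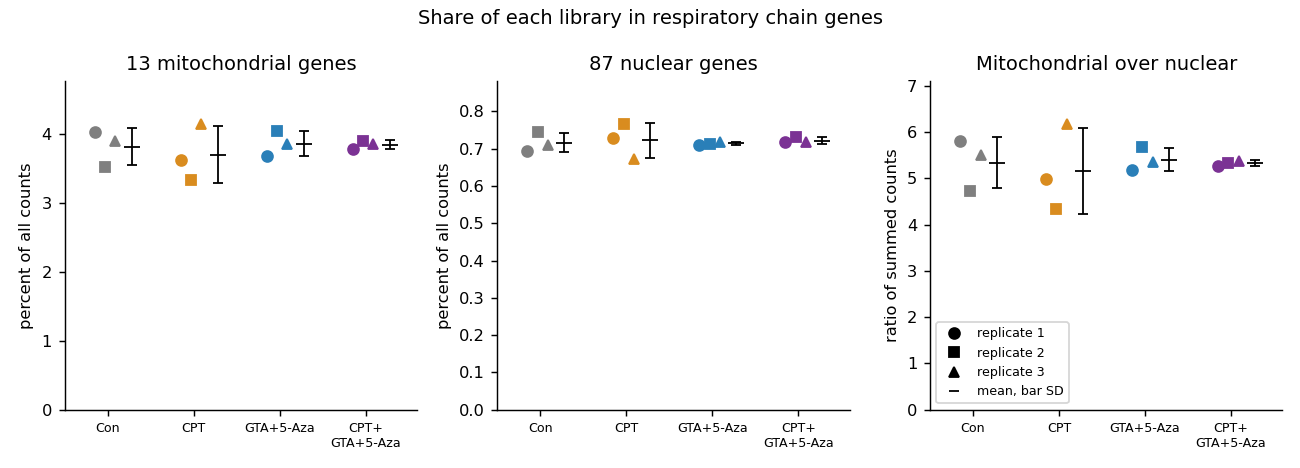
Share of all counts taken by the 13 mitochondrial genes (left), by the 87 nuclear genes (middle), both in percent, and the ratio of the summed counts (right), with 1 point per library and the mean ± SD of 3 libraries beside each group. CPT replicates 2 and 3 mark both ends of the ratio, at 4.34 and 6.18, and the 6 primed libraries lie between 5.18 and 5.67.

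Single subunits changed with priming by small amounts. Priming was tested in cells without CPT (GTA+5-Aza against Con), in cells with CPT (CPT+GTA+5-Aza against CPT) and as the average of both, the comparison with the most libraries. No library serves in both of the first 2. In the average, 19 of 93 members (20.4%) were called, that is, their p from the quasi-likelihood test of edgeR was below 0.05 once adjusted over the 17123 genes by Benjamini and Hochberg's method, where 30.9% of all tested genes were called. Of the nuclear genes, 7 of 80 rose and 9 fell, and of the mitochondrial genes 1 of 13 rose and 2 fell, where 16.8% of all genes rose and 14.0% fell. Scaling by library size alone gave 13 members higher and 9 lower in place of 8 and 11. Without CPT replicate 2, 33 members passed, 15 of them higher and 18 lower.

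The changes were small in both genomes. The median size of the log2 fold change was 0.094 for nuclear and 0.0771 for mitochondrial members, beside 0.188 over all tested genes, and no called member reached a fold change of 1.5. These sizes were not matched for level: the median level was 68.9 CPM for nuclear members and 15.9 CPM over all tested genes. The signed median was -0.0466 in nuclear and 0.0073 in mitochondrial members and 0.0059 over all genes, and under other scalings, filters and left-out libraries it ran from -0.0791 to 0.0069 and from -0.0895 to 0.0528, so neither had a settled sign. The difference between the genomes was not tested. At the fold change above 1.5 and unadjusted P under 0.05 that the study used, 0 members passed in the average, where 9.6% of all genes did, and 0 in cells without CPT, where 8.44% did.

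In cells without CPT, 9 members were called (17.5% of all genes were). Of these, 1 nuclear and 1 mitochondrial gene were higher, where 9.95% of all genes were, and 6 nuclear and 1 mitochondrial gene lower, where 7.53% were. With CPT, 9 members were called (17.0% of all genes). Of these, 1 nuclear and 2 mitochondrial genes were higher (9.57% of all genes) and 4 nuclear and 2 mitochondrial genes lower (7.39%). Both lists held MT-ND2, MT-ND6, UQCRFS1, ATP5F1B and ATP5MK, which is 55.6% of each, and over all genes 2000 were called in both, 66.8% of the first and 68.9% of the second list. The sign was the same in both comparisons for 70 of 93 members (75.3%) and for 76.2% of all genes. Single libraries moved these counts. The first was 4 without GTA+5-Aza replicate 3, 5 without Con replicate 3, 14 without CPT replicate 3 and 16 without CPT replicate 2. The second was 4 without CPT+GTA+5-Aza replicate 2 or 3, 5 without CPT+GTA+5-Aza replicate 1 or CPT replicate 1, and 21 without CPT replicate 2.

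**Figure D2:**
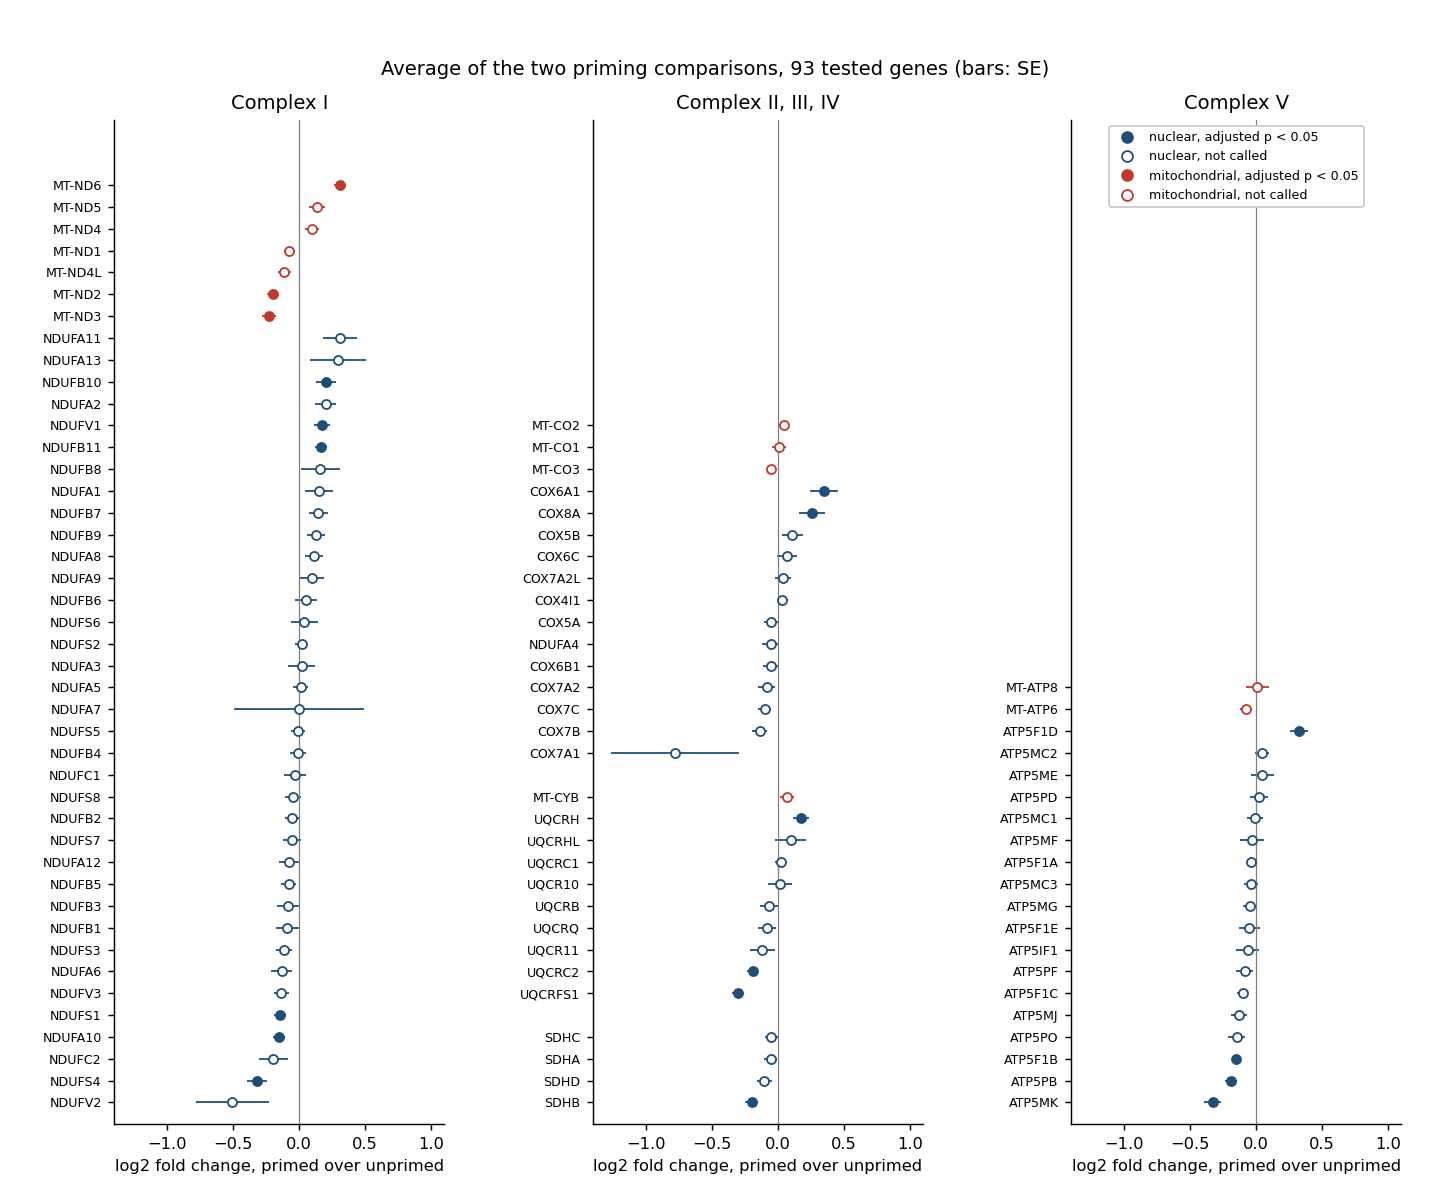
Log2 fold change of primed over unprimed cells, averaged over cells with and without CPT, for the 93 tested members by complex, with bars for the SE. Filled points have an adjusted p under 0.05; nuclear genes are blue and mitochondrial genes red, and called genes lie on both sides of 0, from -0.33 (ATP5MK) to 0.35 (COX6A1).

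The nuclear member with the smallest p in the average belongs to complex III, of which 3 of 9 tested nuclear members were called (33.3%, where 30.9% of all genes were). UQCRFS1 (ENSG00000169021, chr19:29205320-29213151 on GRCh38), the Rieske iron-sulfur protein that takes electrons from ubiquinol, gave 146, 147 and 147 CPM in Con, 160.3, 159 and 149 in CPT, 117, 124 and 121 in GTA+5-Aza and 130.1, 124 and 123 in CPT+GTA+5-Aza. All 6 primed libraries lay below all 6 unprimed ones. UQCRFS1 fell in the average (log2 fold change -0.30 ± 0.043 (SE), adjusted p = 5.3e-06), in cells without CPT (-0.28 ± 0.061, adjusted p = 0.00158) and with CPT (-0.32 ± 0.061, adjusted p = 0.000612), and it was called under every alternative of these 3 comparisons. UQCRC2 (ENSG00000140740, chr16:21953288-21983660), a core protein of the same complex, gave 164, 165 and 167 CPM in Con, 167, 161 and 158 in CPT, 148, 142 and 137 in GTA+5-Aza and 148, 144 and 142 in CPT+GTA+5-Aza. Its primed libraries also lay below the unprimed ones (log2 fold change -0.19 ± 0.041 (SE), adjusted p = 0.000853). UQCRC2 was called in cells without CPT, though not when GTA+5-Aza replicate 3 was left out (adjusted p 0.0598), and was not called in cells with CPT. UQCRH, the hinge protein, was 132 to 191 CPM unprimed and 181 to 189 CPM primed and rose (log2 fold change 0.17 ± 0.061 (SE), adjusted p = 0.0313), but not without Con replicate 1 or 3, CPT replicate 3, GTA+5-Aza replicate 1 or CPT+GTA+5-Aza replicate 1 or 2 (adjusted p 0.0581 to 0.132). Its near-identical copy UQCRHL, at a mean of 13.1 CPM, can share reads with it. The other 6 tested nuclear members of the complex, and MT-CYB, did not pass.

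In complex V, 4 of 18 tested nuclear members were called (22.2%, where 30.9% of all genes were), 1 higher and 3 lower. ATP5MK (ENSG00000173915, chr10:103389041-103396492), a small membrane subunit of the ATP synthase, gave 84, 105 and 104 CPM in Con, 103, 93 and 83.4 in CPT, 77, 81.3 and 72.4 in GTA+5-Aza and 73.1, 78.8 and 72.4 in CPT+GTA+5-Aza and fell (log2 fold change -0.33 ± 0.062 (SE), adjusted p = 0.000164). Every primed library lay below every unprimed one, the nearest being 81.3 CPM in GTA+5-Aza replicate 2 and 83.4 CPM in CPT replicate 3. Its call in cells without CPT was lost without Con replicate 3 (adjusted p 0.0506), and its call with CPT without CPT replicate 1 (0.103) or CPT+GTA+5-Aza replicate 1 or 3 (0.0536 and 0.0624). ATP5F1B (ENSG00000110955, chr12:56638175-56645984), the catalytic β subunit and the most abundant nuclear member, gave 773, 792 and 757 CPM in Con, 782, 773 and 802 in CPT, 689.6, 712 and 676 in GTA+5-Aza and 689.8, 724 and 719 in CPT+GTA+5-Aza. It fell by 0.15 on the log2 scale (SE 0.033, adjusted p = 0.000682), with no overlap between primed and unprimed libraries. Its call without CPT was lost when Con replicate 2 or GTA+5-Aza replicate 1 or 3 was left out (adjusted p 0.06 to 0.0713), and its call with CPT without CPT replicate 1 or 3 or any CPT+GTA+5-Aza replicate (adjusted p 0.0612 to 0.15). ATP5PB, subunit b of the peripheral stalk, was 169.8 to 179 CPM primed and 187 to 217 CPM unprimed (log2 fold change -0.19 ± 0.045 (SE), adjusted p = 0.00174). In cells without CPT it was called, a call lost in 5 of 25 alternatives, and in cells with CPT it was not called.

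ATP5F1D (ENSG00000099624, chr19:1241746-1244825), the δ subunit of the central stalk, went the other way, with 78.6, 86.4 and 71.5 CPM in Con, 82.3, 98.2 and 81.3 in CPT, 96.5, 94.2 and 122 in GTA+5-Aza and 92.3, 108 and 111 in CPT+GTA+5-Aza. It rose in the average (log2 fold change 0.32 ± 0.069 (SE), adjusted p = 0.000627), although CPT replicate 2 lay within the primed range. In cells without CPT the rise was 0.40 ± 0.097, adjusted p = 0.00448, but without GTA+5-Aza replicate 3, the highest library, the adjusted p was 0.0674. The other 14 tested nuclear members of complex V did not pass, among them the genes for the proton-carrying c ring, ATP5MC1, ATP5MC2 and ATP5MC3, which encode the same mature protein. Their log2 fold changes were -0.0096 ± 0.063, 0.045 ± 0.054 and -0.041 ± 0.055 (SE).

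Of the 4 genes of complex II, succinate dehydrogenase, SDHB was the only one called in the average (1 of 4, where 30.9% of all genes were called). SDHB (ENSG00000117118, chr1:17018664-17054032), the iron-sulfur subunit, gave 98.5, 100.02 and 102 CPM in Con, 103, 102 and 92.3 in CPT, 83.4, 87.5 and 91.9 in GTA+5-Aza and 88.8, 89.1 and 81.2 in CPT+GTA+5-Aza. Its highest primed library, at 91.9 CPM, lay just under its lowest unprimed one, at 92.3 CPM, and it fell in the average (log2 fold change -0.20 ± 0.05 (SE), adjusted p = 0.00333). SDHB was called neither in cells without CPT nor in cells with CPT. The flavoprotein SDHA and the membrane anchors SDHC and SDHD were also below 0, at -0.054 ± 0.047, -0.047 ± 0.05 and -0.10 ± 0.059, but with adjusted p values of 0.423, 0.523 and 0.213 they did not pass.

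Complex I has the most members, and 6 of its 36 nuclear genes passed in the average (16.7%, where 30.9% of all genes did), 3 lower and 3 higher (8.33% each way, where 14.0 and 16.8% of all genes were). NDUFS4 (ENSG00000164258, chr5:53560633-53683338), an accessory subunit of the peripheral arm, gave 29.5, 26.5 and 28.8 CPM in Con, 31, 34.7 and 27 in CPT, 22.1, 24.1 and 22.2 in GTA+5-Aza and 23.4, 24.1 and 26 in CPT+GTA+5-Aza and fell without overlap of the libraries (log2 fold change -0.32 ± 0.078 (SE), adjusted p = 0.00213). NDUFA10 and NDUFS1, an accessory subunit and the largest iron-sulfur subunit, fell by less (-0.16 ± 0.045, adjusted p = 0.00973, and -0.14 ± 0.048, adjusted p = 0.0215). NDUFB11 and NDUFB10, accessory subunits of the membrane arm, rose (0.17 ± 0.045, adjusted p = 0.00514, and 0.20 ± 0.074, adjusted p = 0.0366), as did NDUFV1, which binds NADH and FMN (0.17 ± 0.063, adjusted p = 0.0385). NDUFB10 was 45.6 to 62.7 CPM unprimed and 57.9 to 66.5 CPM primed, and NDUFV1 108 to 149 and 126 to 147 CPM. The highest unprimed value of NDUFB10 was that of Con replicate 2, and that of NDUFV1 was CPT replicate 2.

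Several of these complex I calls rested on single libraries. NDUFB10 was lost without Con replicate 1 or 3, CPT replicate 1 or 3, GTA+5-Aza replicate 1 or 3 or CPT+GTA+5-Aza replicate 2 (adjusted p 0.0664 to 0.137). NDUFV1 was lost without Con replicate 1 or 3, CPT replicate 1 or 3, GTA+5-Aza replicate 3 or any replicate of CPT+GTA+5-Aza (adjusted p 0.0617 to 0.125). NDUFS1 was lost without CPT replicate 3, GTA+5-Aza replicate 3 or CPT+GTA+5-Aza replicate 3 (adjusted p 0.0507 to 0.0644). With scaling by library size alone, NDUFA10 and NDUFS1 did not pass (adjusted p 0.0553 and 0.0987). In the average, NDUFS4 and NDUFB11 passed under all 24 alternatives. In cells with CPT both were called, but NDUFB11 lost this call in 15 of 25 alternatives and NDUFS4 in 11 of 25. In cells without CPT neither was called.

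In complex IV, cytochrome c oxidase, 2 of 13 tested nuclear members rose (15.4%, where 16.8% of all genes did) and 0 fell (14.0% of all genes). The lower member with the smallest p, COX7B, was at -0.14 ± 0.058, adjusted p = 0.0766. COX6A1 (ENSG00000111775, chr12:120438090-120440737) and COX8A (ENSG00000176340, chr11:63974620-63976543) encode the widely expressed forms of small structural subunits. COX6A1 gave 17.2, 23.1 and 16.2 CPM in Con, 16, 26.1 and 17.1 in CPT, 24.9, 26.1 and 22.2 in GTA+5-Aza and 25.8, 26.1 and 22.5 in CPT+GTA+5-Aza and rose (log2 fold change 0.35 ± 0.11 (SE), adjusted p = 0.0154). The replicates marked 2 of Con and CPT, at 23.1 and 26.1 CPM, lay within the primed range. COX8A was 38.7 to 76.6 CPM unprimed and 59.8 to 69.5 CPM primed (log2 fold change 0.26 ± 0.10 (SE), adjusted p = 0.0482). COX6A1 was lost without Con replicate 3 or CPT replicate 1 (adjusted p 0.0584 to 0.0628). COX8A was lost without any one of 9 libraries, all but Con replicate 2, CPT replicate 2 and GTA+5-Aza replicate 2 (adjusted p 0.0558 to 0.149), and with DESeq2 its adjusted p was 0.207.

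**Figure D3:**
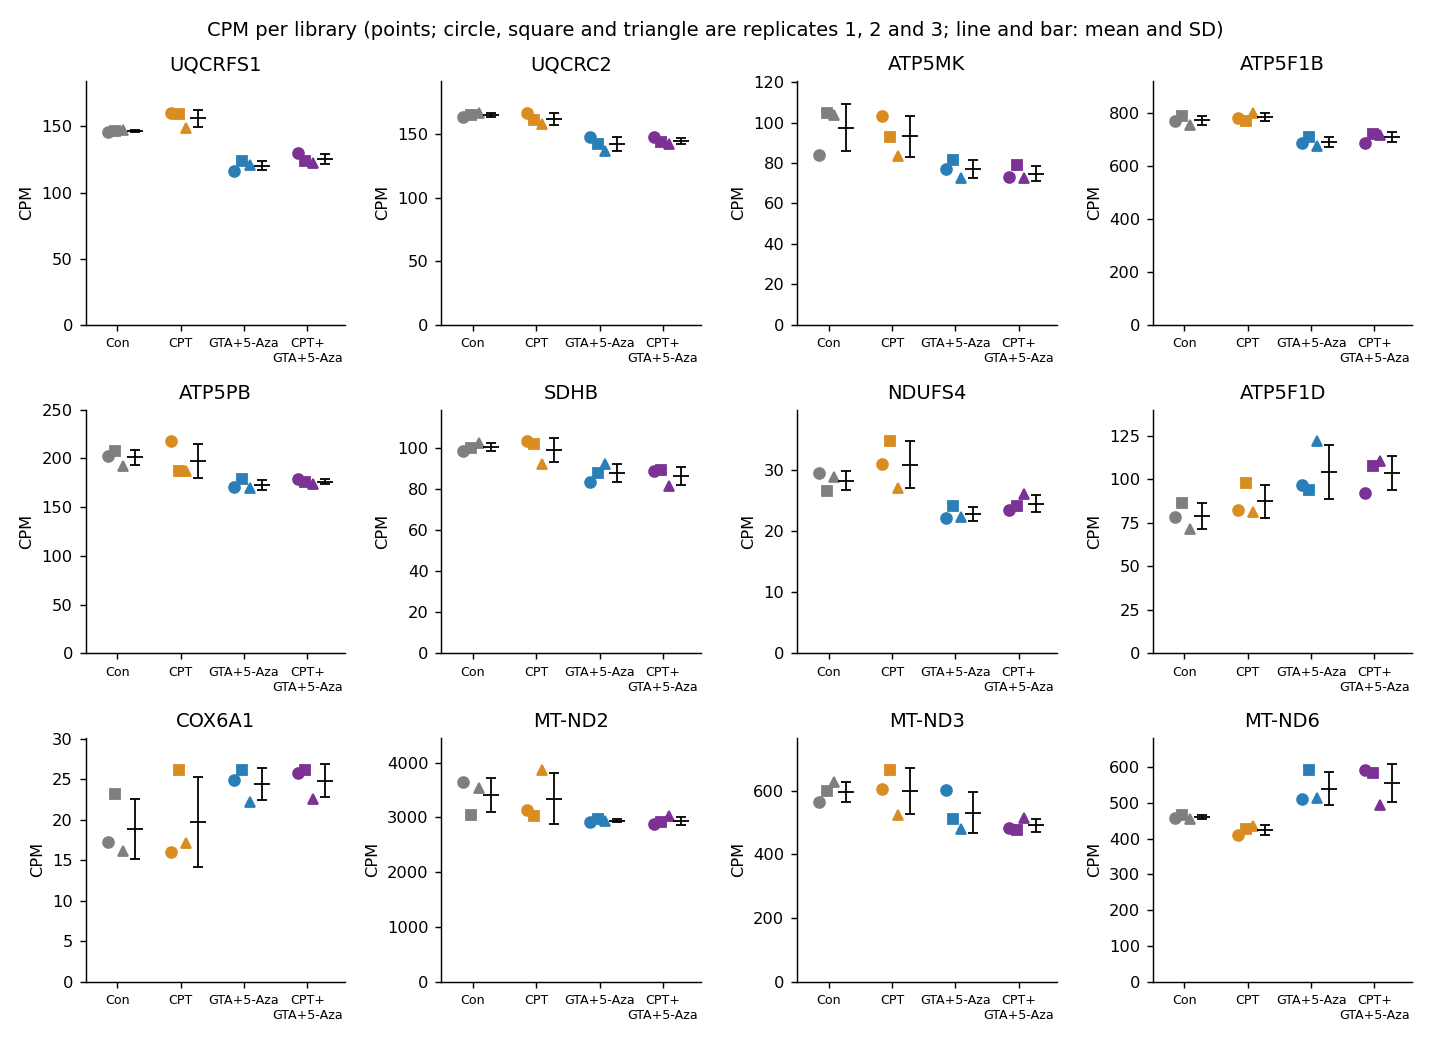
CPM of 12 called members in each of the 12 libraries, with 1 panel per gene, an axis from 0, symbols by replicate number and the mean ± SD of each group of 3. UQCRFS1, UQCRC2, ATP5MK, ATP5F1B, ATP5PB, SDHB, NDUFS4 and MT-ND2 are lower and MT-ND6 higher in all primed than in all unprimed libraries, while ATP5F1D, COX6A1 and MT-ND3 overlap.

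Over all members, 8 had all 6 primed libraries below all 6 unprimed ones (8.6% of 93, where 6.81% of all genes did), and 1 had them above (1.08%, where 8.04% of all genes did). The 8 lower genes were 7 nuclear ones, NDUFS4, SDHB, UQCRC2, UQCRFS1, ATP5F1B, ATP5MK and ATP5PB, and MT-ND2. The 1 higher gene was MT-ND6.

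The 13 mitochondrial genes are neighbours on 1 small chromosome, yet they moved in both directions. MT-ND6 (ENSG00000198695, chrM:14149-14673), a membrane subunit of complex I and the only one of the 13 encoded on the opposite strand, gave 458, 466 and 454 CPM in Con, 409, 427 and 435 in CPT, 511, 592 and 514 in GTA+5-Aza and 590.1, 582 and 495 in CPT+GTA+5-Aza. Every primed library lay above every unprimed one, and MT-ND6 rose in the average (log2 fold change 0.31 ± 0.045 (SE), adjusted p = 5.3e-06), without CPT (0.23 ± 0.063, adjusted p = 0.0115) and with CPT (0.39 ± 0.063, adjusted p = 7.96e-05). Without Con replicate 3 or GTA+5-Aza replicate 2 the value in cells without CPT did not pass (adjusted p 0.0571 and 0.0993). The strand setting of the counting is not given in the sources used here, so reads of MT-ND6 and of RNA from the other strand cannot be told apart. MT-ND5 ends at the base before MT-ND6 begins on the chromosome.

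MT-ND2 (ENSG00000198763, chrM:4470-5511) and MT-ND3 (ENSG00000198840, chrM:10059-10404), also membrane subunits of complex I, fell. MT-ND2 gave 3637, 3045 and 3529 CPM in Con, 3133, 3026 and 3868 in CPT, 2919, 2974 and 2928 in GTA+5-Aza and 2870.4, 2910.2 and 3024 in CPT+GTA+5-Aza, with all primed libraries below all unprimed ones (log2 fold change -0.20 ± 0.046 (SE), adjusted p = 0.00138). The nearest nearly touched, at 3024 CPM in CPT+GTA+5-Aza replicate 3 and 3026 CPM in CPT replicate 2. MT-ND3 gave 565, 599 and 628 CPM in Con, 607, 666 and 524 in CPT, 603, 509.9 and 481 in GTA+5-Aza and 482, 477 and 514 in CPT+GTA+5-Aza, and of the primed libraries only GTA+5-Aza replicate 1 lay within the unprimed range (log2 fold change -0.23 ± 0.053 (SE), adjusted p = 0.00144). MT-ND3 was called with CPT (-0.29 ± 0.074, adjusted p = 0.00797) and not without it (-0.17 ± 0.074, adjusted p = 0.124), and the difference between these was not called (interaction adjusted p = 1). In the average, MT-ND2 passed under all 24 alternatives. Its call was lost in 5 of 25 alternatives without CPT and in 14 of 25 with CPT. In cells without CPT (-0.21 ± 0.065, adjusted p = 0.0236) it did not pass without Con replicate 1 or 3 or GTA+5-Aza replicate 1 or 3 (adjusted p 0.0705 to 0.145), or with scaling by library size alone (0.0662). In cells with CPT (-0.19 ± 0.065, adjusted p = 0.0462) it did not pass without CPT replicate 3, its highest library (-0.074, adjusted p = 0.371), or without any 1 of the 6 primed libraries (adjusted p 0.0502 to 0.149). With all libraries kept, it also did not pass with DESeq2 (adjusted p 0.0663) or edgeR's likelihood ratio test (0.0784). The same held for scaling by library size alone (0.121), the stricter filter on low counts (0.0608) and the GC and length trend removed (0.0625). With only the groups compared, its adjusted p was 0.0758. A nuclear copy of MT-ND2, MTND2P28, gave 192 ± 20.6 in Con, 180.0 ± 25.9 in CPT, 150.0 ± 9.16 in GTA+5-Aza and 152 ± 3.66 in CPT+GTA+5-Aza CPM (SD, n = 3) and fell as well (-0.30 ± 0.059, adjusted p = 0.000254). How reads were split between such copies was not tested.

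MT-ND5, another membrane subunit of complex I, passed for priming in cells with CPT and in neither the other cells nor the average. It gave 2017, 1926 and 2031 CPM in Con, 1698, 1397 and 1668 in CPT, 1691, 2182 and 1877 in GTA+5-Aza and 2113, 2178 and 1669 in CPT+GTA+5-Aza, and it rose with priming in cells with CPT (0.32 ± 0.082, adjusted p = 0.00653) but not in cells without it (-0.055 ± 0.082, adjusted p = 0.716). Every CPT library lay below every Con library, and CPT replicate 2, at 1397 CPM, was its lowest library. The interaction itself, a log2 difference of 0.38 ± 0.12, was under 0.05 in edgeR before adjustment, with an adjusted p = 1.0 after it, so the comparisons were not shown to differ in the main fit. With no filter on low counts, edgeR called the interaction (adjusted p = 8.32e-05), so its call depended on the filter. The log2 difference there, 0.378, was nearly that of the main fit, so its p-value moved and its size did not. In 23 of 24 alternatives no member was called in the interaction. Without CPT+GTA+5-Aza replicate 2 the rise with CPT had an adjusted p of 0.0678, and with DESeq2 0.0695.

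The core subunits of complexes III, IV and V did not pass in the average. The log2 fold change was 0.073 ± 0.054 for MT-CYB, the cytochrome b of complex III. For the catalytic core of cytochrome c oxidase it was 0.0098 ± 0.051 for MT-CO1, 0.048 ± 0.04 for MT-CO2 and -0.05 ± 0.034 for MT-CO3. MT-CO1, the most abundant of the 13 by CPM, gave 10192, 8656 and 9594 CPM in Con, 9243, 7373 and 9992 in CPT, 8537, 10115 and 9302 in GTA+5-Aza and 9154, 9483 and 8804 in CPT+GTA+5-Aza, and its groups overlapped throughout. MT-ATP6 and MT-ATP8, the ATP synthase subunits, were at -0.077 ± 0.048 and 0.0073 ± 0.086, and MT-ND1, MT-ND4 and MT-ND4L of complex I at -0.076 ± 0.041, 0.095 ± 0.053 and -0.11 ± 0.047.

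The 16S ribosomal RNA of the mitochondrial ribosome, MT-RNR2, is no member but lies on the same precursor as the coding genes of its strand. It gave 5541, 5032 and 5282 CPM in Con, 4920.0, 4496 and 5263 in CPT, 6273, 6630.0 and 6098 in GTA+5-Aza, 6076, 6146 and 5966 in CPT+GTA+5-Aza, rose in the average (0.29 ± 0.033, adjusted p = 2.22e-07) and had all primed above all unprimed libraries. The 12S ribosomal RNA, MT-RNR1, did not pass (-0.035 ± 0.097, adjusted p = 0.827). Con replicate 2 had 987.7 CPM of MT-RNR1, where the other 11 libraries had 445.8 to 589.7. Without Con replicate 2, both rRNAs were called higher, with a median log2 fold change of 0.21 in place of 0.125. Of 8 tested mitochondrial tRNA genes, MT-TT rose (1.04 ± 0.17, adjusted p = 3.49e-05) and MT-TQ fell (-0.34 ± 0.096, adjusted p = 0.00863). The stricter filter on low counts left 5 tRNA genes tested, and of these none rose. Without CPT replicates 2 and 3, the median log2 fold change of the 8 was 0.0372 in place of 0.136. Of 12 tested nuclear copies of mitochondrial genes 3 fell and 0 rose, among them MTATP6P1 (-0.20 ± 0.067, adjusted p = 0.0201), where 14.0% of all genes fell. Only 1 fell without Con replicate 3, GTA+5-Aza replicate 1 or CPT+GTA+5-Aza replicate 1, or with scaling by library size alone. Of 9 pseudogenes named for a nuclear member 1 fell, SDHAP4 (-0.22 ± 0.068, adjusted p = 0.0164), and 0 without Con replicate 1 or CPT+GTA+5-Aza replicate 2 or with scaling by library size alone.

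**Figure D4:**
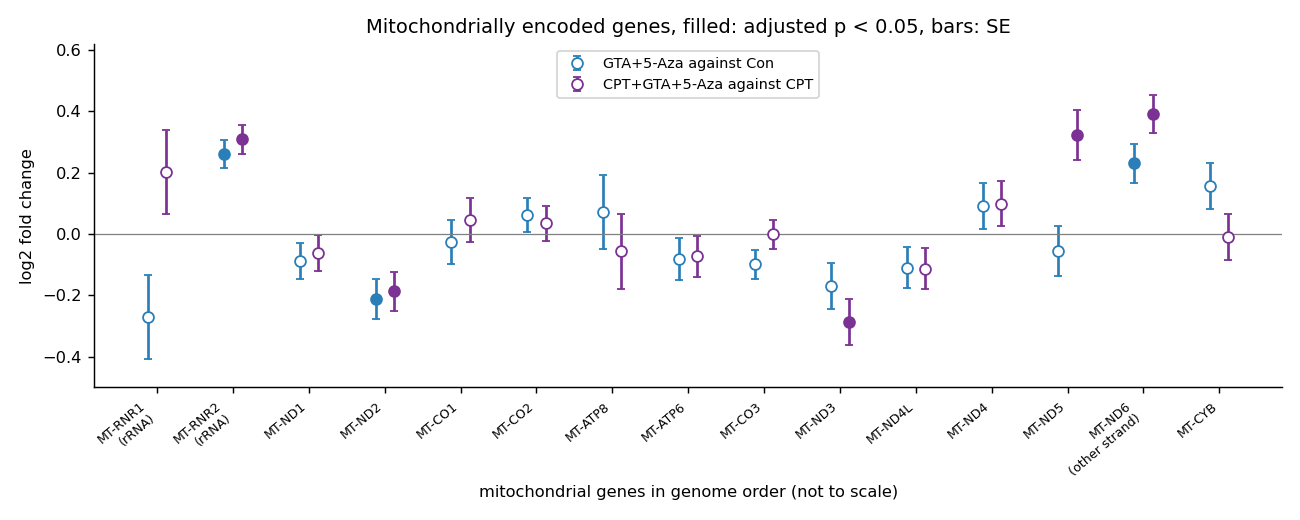
Log2 fold change with priming of the 13 mitochondrial coding genes and both rRNAs in their order on the chromosome, in cells without CPT (blue) and with CPT (purple), with bars for the SE and filled points for an adjusted p under 0.05. MT-ND2 lies below 0 and MT-ND6 and MT-RNR2 above 0 in both comparisons, and MT-ND5 is called only in cells with CPT, at 0.32.

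Some mitochondrial genes overlap on 1 strand, which touches their counts. The longer of the 3 overlaps are shown with the shared bases in capitals and 12 flanking bases on each side, read from GRCh38. MT-ATP8 and MT-ATP6 share 46 bases at chrM:8527-8572 on the plus strand, from the ATG that starts MT-ATP6 to the TAG that ends MT-ATP8. MT-ND4L and MT-ND4 share 7 bases at chrM:10760-10766, from the ATG of MT-ND4 to the TAA of MT-ND4L. MT-ATP6 and MT-CO3 share 1 base, at chrM:9207-9207.
MT-ATP8/MT-ATP6: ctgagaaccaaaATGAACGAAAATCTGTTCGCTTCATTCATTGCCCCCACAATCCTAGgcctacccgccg
MT-ND4L/MT-ND4: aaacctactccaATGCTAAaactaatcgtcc
The shared bases are 22.2% of the length of MT-ATP8 and 2.36% of that of MT-ND4L. MT-ATP8 gave 303 CPM per kilobase on average, the lowest of the 13, beside 4512 for MT-ATP6. MT-ND4L gave 2024 and MT-ND4 3275 CPM per kilobase. Reads that fall on overlapping genes are left uncounted in the usual mode of HTSeq, and the mode used is not given in the sources used here.

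Per kilobase of exon, the mitochondrial genes stood above nearly all nuclear ones. The mitochondrial genes ran from 303 (MT-ATP8) to 8424 CPM per kilobase (MT-CO2), with MT-CO3 at 6174, MT-CO1 at 5969, MT-ND2 at 3028 and MT-ND6 at 942. The tested nuclear genes ran from 0.583 (NDUFA7) to 331 CPM per kilobase (ATP5F1B). Their medians by complex were 13.1 in complex I, 31.5 in complex II, 36.2 in complex III, 34.9 in complex IV and 30.4 in complex V. After ATP5F1B, the highest were NDUFS5 at 181, UQCRH at 130.1 and COX8A at 123 CPM per kilobase. These levels take the length of all annotated exons of a gene, which is longer than any one transcript.

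Annotation overlap also touches nuclear members. Of the 80 tested, 44 share exon bases with another annotated gene, and 15 share over 20%. NDUFA7, NDUFV2, NDUFA13 and NDUFB8, subunits of a complex whose other members stand far higher, averaged only 0.812, 1.7, 2.79 and 8.35 CPM, and they share 32.5, 28.4, 21 and 48.5% of their exon bases. The part of this overlap in their low counts was not tested, and their fold changes are uncertain. None of the 4 was called. Of the called nuclear members, 7 of 16 share exon bases, among them COX8A (35.4%), ATP5MK (18.1%) and COX6A1 (13.1%).

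Base composition and length moved with the direction of the calls. The 7 nuclear members that rose had a median GC content of 57.9% and a median exon length of 1341 bases, and the 9 that fell 43.4% and 3086 bases. Over all tested genes the GC content of those that rose and fell was also apart, 55.2 and 43.8%, with lengths of 4758 and 6108 bases. With each library's trend with GC content and length removed, 20 members passed, 8 of them higher and 12 lower, where 15.8% of all genes were higher and 16.8% lower. NDUFA10, NDUFS1, NDUFB10, NDUFV1 and COX8A then lost their calls, with adjusted p values of 0.0844, 0.141, 0.299, 0.674 and 0.116, and NDUFV1 moved from a log2 fold change of 0.17 to 0.027. The other members called in the average kept their calls in this fit. The part of GC content and length in the size of their changes was not tested further.

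The promoters of the nuclear members are shared ground for the factors that drive respiratory genes, of which NRF1, GABPA and YY1 are the best known. RefSeq promoters on GRCh38.p14, from 250 bases before to 50 after the start, were matched by symbol and chromosome for 69 of the 87 nuclear members. The letters searched on both strands were GCGC and TGCGC with any 1 base between them for NRF1, CCGGAAGT for GABPA and other ETS factors, and ATGGCGG for YY1, each counted on its own whether or not it overlaps another. NRF1 letters stood in 17 of 69 promoters (24.6%, where 5.75% of all 34796 promoters held them), GABPA letters in 10 (14.5%, against 4.13%) and YY1 letters in 19 (27.5%, against 5.55%). The median number of CG pairs was 23 per promoter, against 14 over all. Of the 6 matched members that rose, 0 held the NRF1 letters, 2 the GABPA and 2 the YY1 letters, and of the 8 that fell, 1, 2 and 3 did. The 250 bases before the RefSeq start are shown for 2 matched members that fell and 2 that rose, those with the smallest p. The bases run 5′ to 3′ in the direction of the gene, with the letters found in capitals. The ends of the ATP5MK and COX6A1 stretches lie inside the GENCODE positions given above for these genes.
UQCRFS1 (chr19:29213152-29213401, minus strand): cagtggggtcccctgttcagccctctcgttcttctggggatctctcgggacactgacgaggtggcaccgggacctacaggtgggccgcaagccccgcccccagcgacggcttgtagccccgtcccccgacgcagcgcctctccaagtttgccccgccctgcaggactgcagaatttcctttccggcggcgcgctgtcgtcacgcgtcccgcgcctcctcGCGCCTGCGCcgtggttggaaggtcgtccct
ATP5MK (chr10:103396476-103396725, minus strand): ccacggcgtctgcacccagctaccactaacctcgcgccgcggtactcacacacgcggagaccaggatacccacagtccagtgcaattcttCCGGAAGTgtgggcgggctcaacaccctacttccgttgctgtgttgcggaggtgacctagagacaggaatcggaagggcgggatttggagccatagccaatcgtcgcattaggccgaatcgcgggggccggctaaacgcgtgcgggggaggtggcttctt
NDUFB11 (chrX:47144703-47144952, minus strand): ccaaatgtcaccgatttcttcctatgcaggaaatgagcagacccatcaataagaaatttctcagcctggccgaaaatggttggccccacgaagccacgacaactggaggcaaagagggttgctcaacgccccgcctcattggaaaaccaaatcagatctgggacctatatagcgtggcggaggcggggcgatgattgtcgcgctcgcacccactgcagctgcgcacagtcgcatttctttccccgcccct
COX6A1 (chr12:120437863-120438112, plus strand): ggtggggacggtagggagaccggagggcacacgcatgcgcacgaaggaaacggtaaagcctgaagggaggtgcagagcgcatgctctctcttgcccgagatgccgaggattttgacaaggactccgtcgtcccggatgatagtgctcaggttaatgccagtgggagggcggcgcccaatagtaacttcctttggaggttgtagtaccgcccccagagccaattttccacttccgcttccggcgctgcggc
They hold 27, 23, 16 and 19 CG pairs. A match of letters is a description and not a bound site, and DNA methylation was not measured in these libraries.

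Whether CPT acts on respiratory genes, alone or after priming, was asked by CPT against Con and by CPT+GTA+5-Aza against GTA+5-Aza. In both, and in the interaction of CPT and priming, edgeR called 0 of 93 members and 0.0% of all genes, and DESeq2 also called 0 members. At an unadjusted P under 0.05, 5 members passed in CPT against Con (4.28% of all genes did), 0 in CPT+GTA+5-Aza against GTA+5-Aza (2.71%) and 2 in the interaction (2.63%). The 5 were MT-ND5 (-0.33 ± 0.082, adjusted p = 0.714), COX7A1 (1.5 ± 0.66), and NDUFA5, NDUFA8 and ATP5PF, which were chosen after their values were seen and lay within 0.23 of 0. With no filter on low counts, 32000 genes were tested, of which 10 were called in CPT against Con. MT-ND5 was among them (adjusted p = 5.23e-08) and was also called in the interaction (adjusted p = 8.32e-05). Its log2 fold change with CPT was -0.327 there, nearly that of the main fit, so its p-value moved and its size did not. Why the p-value fell was not tested, and 24 of 25 alternatives called no member in CPT against Con. The median change with CPT, on the log2 scale, was 0.0204 in nuclear and -0.0032 in mitochondrial members without priming, and 0.0239 and -0.0027 with it. Without CPT replicate 3 the mitochondrial median in CPT against Con was -0.123.

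All agents together were compared with Con. In CPT+GTA+5-Aza against Con, 11 members were called, where 16.8% of all genes were. Of these, 3 nuclear genes and 1 mitochondrial gene were higher (9.62% of all genes were) and 5 nuclear and 2 mitochondrial genes lower (7.16%). UQCRFS1 was at -0.22 ± 0.061, adjusted p = 0.0108 and MT-ND6 at 0.28 ± 0.063, adjusted p = 0.00299. This comparison shares its Con libraries with GTA+5-Aza against Con. The count was 4 without CPT+GTA+5-Aza replicate 2, 6 without CPT+GTA+5-Aza replicate 1 or 3 or Con replicate 1, 5 without Con replicate 3 and 18 without CPT replicate 2.

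Several subunits come in forms that differ by tissue, and the widely expressed form was the abundant one in each pair. COX4I1 gave 267 CPM on average and its lung form COX4I2 was at 0 in 11 libraries and had 10 counts in GTA+5-Aza replicate 2. COX6A2, the heart and muscle form, and COX7B2 were at 0 in all 12 libraries, which allows at most 0.141 to 0.186 CPM (3 counts) per library, beside 21.9 CPM of COX6A1 and 81.3 of COX7B. COX6B2, the testis form, had 0 to 18 counts beside 83.5 CPM of COX6B1, and COX8C had 0 to 4 counts beside 60.6 CPM of COX8A. NDUFA4L2 had 0 to 12 counts and NDUFA4 83.8 CPM, and ATP5MGL had 0 to 8 counts. These 7 genes were not tested, and no group stood apart in them.

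COX7A1, the heart and muscle form of COX7A, was the only low form that passed the filter, and the only member past a fold change of 1.5 with an unadjusted P under 0.05 in any comparison of 2 groups, where 8.67% of all genes were in CPT+GTA+5-Aza against CPT and 1.83% in CPT against Con. It gave 0.683, 0.286 and 0.34 CPM in Con, 1.04, 0.884 and 1.8 in CPT, 0.107, 0.801 and 0.451 in GTA+5-Aza and 0.264, 0.681 and 0.245 in CPT+GTA+5-Aza, so every library held few reads of it. It was at -1.63 ± 0.67, adjusted p = 0.0989 with priming in CPT cells and at 1.5 ± 0.66, adjusted p = 1 with CPT in unprimed cells, and neither passed after adjustment. The widely expressed COX7A2 and the related supercomplex factor COX7A2L averaged 67 and 66.8 CPM, with log2 fold changes of -0.084 ± 0.063 and 0.038 ± 0.062 in the average. In the interaction, NDUFA7 was the only member past both limits, where 1.78% of all genes were (-1.92 ± 0.81, unadjusted P = 0.0257), at 0.245 to 1.54 CPM per library.

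Many genes that express the mitochondrial genome fell with priming. Of 22 tested genes of mitochondrial DNA transcription and replication, 9 fell and 0 rose in the average, of 31 genes of mitochondrial RNA processing 13 fell and 1 rose, and of 75 mitochondrial ribosomal proteins 26 fell and 4 rose, where 14.0% of all genes fell and 16.8% rose. Their median log2 fold changes were -0.175, -0.127 and -0.0863. These lists were written with earlier results of these data known, and no test compared them with the subunits. Across the alternatives, 6 to 10, 11 to 16 and 19 to 31 genes of the lists fell, and 0 to 1, 1 to 2 and 2 to 10 rose. With the GC and length trend removed, 10, 16 and 31 fell. Without CPT replicate 2, 8 ribosomal protein genes and 2 RNA processing genes rose, and without GTA+5-Aza replicate 3, 2 ribosomal protein genes did.

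TFAM, which packages mitochondrial DNA and starts its transcription, gave 150.0, 138 and 141 CPM in Con, 145, 150.0 and 143 in CPT, 126, 125 and 117 in GTA+5-Aza and 122, 125 and 124 in CPT+GTA+5-Aza and fell (log2 fold change -0.23 ± 0.044 (SE), adjusted p = 0.000171). TFB2M, its partner at the promoters, fell slightly (-0.17 ± 0.063, adjusted p = 0.0478), while the mitochondrial RNA polymerase POLRMT was at 0.028 ± 0.058, adjusted p = 0.766. RNASEH1, which removes RNA from DNA hybrids, and ATAD3A, of the nucleoid region, fell (-0.38 ± 0.062, adjusted p = 2.44e-05, and -0.32 ± 0.068, adjusted p = 0.000589). In RNA processing, PNPT1, a mitochondrial RNA exonuclease, gave 107, 92.3 and 95.8 CPM in Con, 107, 87 and 103 in CPT, 72, 76.2 and 69.8 in GTA+5-Aza and 72.8, 75.4 and 72.2 in CPT+GTA+5-Aza with no overlap of the primed and unprimed libraries (log2 fold change -0.43 ± 0.057 (SE), adjusted p = 1.4e-06). FASTKD2 and LRPPRC, which bind mitochondrial RNAs, fell too (-0.43 ± 0.06, adjusted p = 3.15e-06, and -0.28 ± 0.043, adjusted p = 1.79e-05), and GTPBP3, a tRNA-modifying enzyme, rose (0.35 ± 0.092, adjusted p = 0.00433). Of the ribosomal proteins, MRPL3, MRPS35 and MRPL15 fell (-0.25 ± 0.039, -0.32 ± 0.05 and -0.33 ± 0.052) and MRPL34, MRPS26 and MRPS34 rose (0.35 ± 0.082, 0.30 ± 0.085 and 0.21 ± 0.064).

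Assembly factors, the citric acid cycle and coenzyme Q synthesis moved both ways, with more genes lower than higher in the average. The median log2 fold change was -0.0885 for complex I assembly and -0.0625 for assembly of complexes II to V. It was -0.0716 for the cycle and -0.1059 for coenzyme Q synthesis. Of 18 complex I assembly genes 1 rose and 4 fell, of 41 for complexes II to V 5 rose and 9 fell, of 22 genes of the cycle 2 rose and 7 fell, and of 13 genes of coenzyme Q synthesis 1 rose and 2 fell, where 16.8% of all genes rose and 14.0% fell. Across the alternatives, 3 to 5, 6 to 12, 4 to 9 and 1 to 4 genes of these lists fell and 1 to 2, 4 to 5, 0 to 2 and 1 to 2 rose. In the cycle, 4 fell and 1 rose without CPT+GTA+5-Aza replicate 1, 1 rose without Con replicate 2 or 3, and 4 fell with scaling by library size alone. In coenzyme Q synthesis, 2 rose without Con replicate 2, CPT replicate 2 or CPT+GTA+5-Aza replicate 3, and 4 fell without CPT replicate 2. COA1 rose (0.32 ± 0.055, adjusted p = 6.21e-05) and NDUFAF4 and NDUFAF2, complex I assembly factors, fell (-0.32 ± 0.077, adjusted p = 0.0023, and -0.30 ± 0.075, adjusted p = 0.00276). UQCC3, SURF1 and SDHAF1, which serve complexes III, IV and II, rose (0.58 ± 0.099, 0.35 ± 0.083 and 0.67 ± 0.17), whereas COA6, SCO1 and COX10, of complex IV, fell (-0.42 ± 0.081, -0.29 ± 0.06 and -0.32 ± 0.086). Citrate synthase (CS) and the E3 subunit DLD fell (-0.22 ± 0.04, adjusted p = 8.94e-05, and -0.25 ± 0.048, adjusted p = 0.000212) and IDH2 rose (0.19 ± 0.052, adjusted p = 0.00718). PDSS2, which builds the coenzyme Q tail, fell (-0.43 ± 0.083, adjusted p = 0.000269) and COQ10A rose (0.62 ± 0.13, adjusted p = 0.000546).

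Of the 22 tested nuclear regulators of respiratory genes, 2 rose and 7 fell, where 16.8% of all genes rose and 14.0% fell, and across the alternatives 1 to 3 rose and 5 to 10 fell. ESRRA, the estrogen-related receptor α, rose (0.33 ± 0.065, adjusted p = 0.000303), as did TFEB at a low level (0.92 ± 0.26, adjusted p = 0.00888). HIF1A, GABPB2 and SIRT1 fell (-0.27 ± 0.046, adjusted p = 5.7e-05, -0.53 ± 0.10, adjusted p = 0.000211, and -0.29 ± 0.059, adjusted p = 0.00045). NRF1 and GABPA were at -0.19 ± 0.075, adjusted p = 0.0503 and -0.11 ± 0.057, adjusted p = 0.134, MYC at -0.084 ± 0.045, adjusted p = 0.165 and the coactivator PPARGC1B at -0.042 ± 0.084, adjusted p = 0.759, and these 4 did not pass. The coactivator PPARGC1A did not pass the filter on low counts and was not tested. Of the subunits outside the naming rule, CYCS, the mobile cytochrome c, fell (-0.16 ± 0.044, adjusted p = 0.00715), while CYC1 of complex III and NDUFAB1 of complex I did not pass (0.049 ± 0.048, adjusted p = 0.489, and -0.13 ± 0.064, adjusted p = 0.113).

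**Figure D5:**
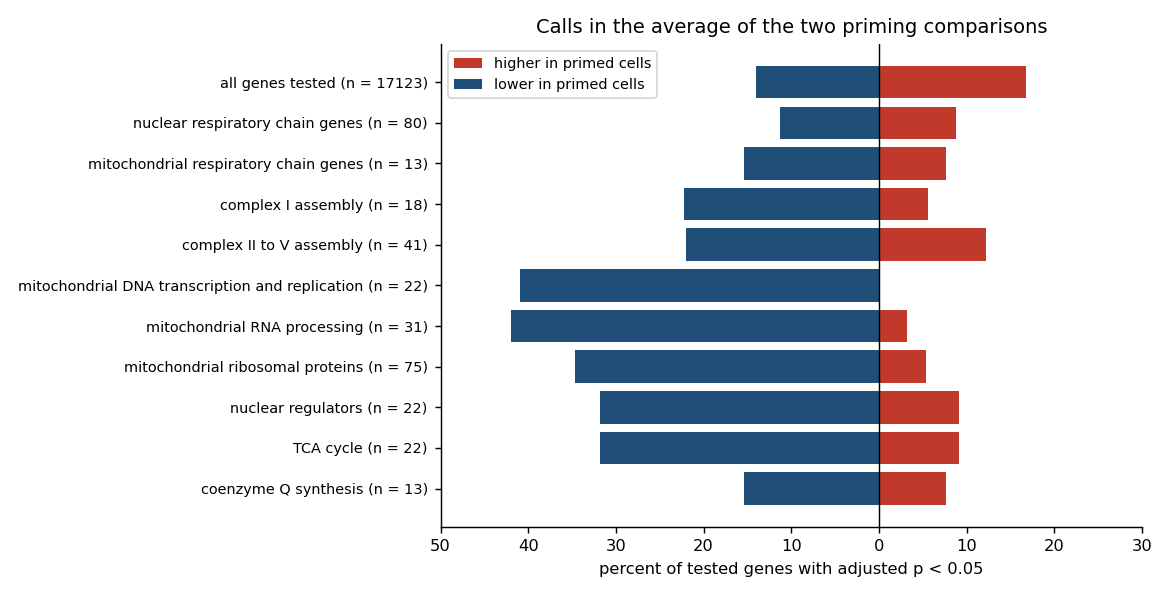
Percent of the tested genes of each list with an adjusted p under 0.05 in the average of both priming comparisons, higher to the right and lower to the left of 0, with the number tested as n. The 3 lists of mitochondrial gene expression reach furthest to the left, with 9 of 22, 13 of 31 and 26 of 75 genes lower, beside 9 of 80 nuclear and 2 of 13 mitochondrial respiratory chain genes.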

How the data were processed

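Per the labels and the study's methods, the authors took paired-end reads through Trim Galore, mapped what was left on GRCh38 (HISAT2 2.2.1) and counted reads per gene with HTSeq. The deposited values are raw counts, 1 file per library, with 16162490 to 21224665 counts each. The annotation release and the strand setting of the counting are not given in the sources used here. Symbols, positions, exon lengths and overlaps were taken from GENCODE v44 by Ensembl identifier, which held 52181 of the 63677 identifiers.

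Genes were filtered with filterByExpr over the 4 groups, scaled by TMM and tested with the quasi-likelihood test of edgeR 4.0.16 in R 4.3.3, with all 12 libraries in 1 fit (common dispersion 0.0101), without a replicate block. Adjusted p values are Benjamini-Hochberg values over 17123 genes, and called means an adjusted p under 0.05. Values after ± are SDs of 3 libraries for levels and SEs for log2 fold changes. The scripts were tested on simulated counts. Alternatives were other scalings and filters, DESeq2 1.42.0, edgeR's likelihood ratio test, a GC and length correction, a replicate block and leaving out libraries.

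The naming rule uses no measured value, but the gene family and the other lists were chosen with earlier results of these data known, so they are not independent of them. Named were the 13 mitochondrial genes, up to 3 nuclear members per complex and direction with the smallest p among those called, members past a fold change of 1.5 with an unadjusted P under 0.05, isoform partners, up to 3 genes per direction of other lists, and a set of regulators and unlisted subunits. ATP5MGL, NDUFA5, NDUFA8, ATP5PF, NDUFS5 and the low members with overlapping exons were named after their values were seen.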

Additional observations from a re-analysis of the deposited data

How the results depend on the processing

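Of 93 tested members, the number called with priming was 9 without CPT, 9 with CPT and 19 in the average. Leaving out 1 library gave 4 to 16, 4 to 21 and 15 to 33, and for CPT+GTA+5-Aza against Con, 11 in the full fit, 4 to 18. With only the groups compared, the counts were 16 without CPT, 5 with CPT and 25 for CPT+GTA+5-Aza against Con. Without CPT replicates 2 and 3, a choice made after seeing the data, they were 18 for priming without CPT and 21 for CPT+GTA+5-Aza against Con. Without Con replicate 2 and CPT replicate 2, also chosen after seeing the data, they were 21, 25, 33 and 23 for priming without CPT, with CPT, on average and for CPT+GTA+5-Aza against Con. With no filter on low counts, 1 member was called in CPT against Con and 1 in the interaction, in place of 0. The mitochondrial median in CPT against Con, -0.0032, ran from -0.1227 to 0.042 when 1 library was left out. The cause was not tested.

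Replicate numbers showed no clear pairing of the samples. Deviations of same-numbered libraries correlated at -0.0844 to 0.117 over 18 pairs, and those of different numbers at -0.0969 to 0.0708 over 36. The highest value, 0.117, was that of Con replicate 2 with CPT replicate 2. Whether libraries of some numbers shared a batch was not tested. A replicate block gave 10, 10 and 21 calls, and with the GC and length correction 12, 11 and 23. Of the 19 members called in the average, 12 were called under all 24 alternatives, and 0 changed sign. The separate comparisons held less well. Of the 9 members called without CPT, 1 was called under all 25 alternatives, and of the 9 called with CPT, 2 were. At these totals, members under about 1 CPM, such as COX7A1 and NDUFA7, had few reads in each library.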
